A study of Mus musculus with 24 samples.

Results

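The genes described here encode the subunits of the mitochondrial respiratory chain and of the ATP synthase that it powers. They were chosen by gene symbol: names beginning with Ndufa, Ndufb, Ndufc, Ndufs or Ndufv (complex I), Sdha to Sdhd (complex II), Uqcr (complex III), Cox4 to Cox8 (complex IV) and Atp5 (complex V), with the mt-Nd, mt-Cyt, mt-Co and mt-Atp genes of the mitochondrial genome. Of 55487 gene identifiers in the table, 124 carried such a name. Of these, 12 assembly factors, 9 genes with a pseudogene name and 8 genes with under 10 counts in most libraries were set aside. The remaining 95 genes were 82 nuclear genes (39 of complex I, 4 of complex II, 8 of complex III, 14 of complex IV and 17 of complex V) and 13 mitochondrial genes (7, 1, 3 and 2 of complexes I, III, IV and V).

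The respiratory chain passes electrons from NADH, at complex I, or succinate, at complex II, through ubiquinone to complex III, then through cytochrome c to complex IV, where oxygen is reduced. Complexes I, III and IV pump protons across the inner mitochondrial membrane, and complex V uses their return to make ATP. All complexes but the second hold subunits from both genomes, so that a working enzyme needs transcripts made in the nucleus and in the mitochondrion. Macrophages exposed to lipopolysaccharide (LPS, a component of the bacterial outer membrane) are known for a shift of ATP production from the respiratory chain towards glycolysis.

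RNA was sequenced from microglia of adult male mice aged 8 to 10 weeks. The mice were control offspring or offspring exposed before birth to maternal immune activation (MIA), and each received an intraperitoneal injection of saline or of LPS at 4500 endotoxin units per gram of body weight. Cells were collected 18 hours later from frontal cortex or from pooled pieces of striatum and were purified on anti-CD11b magnetic beads, which also retain other CD11b-positive cells such as neutrophils and monocytes. This gave 8 groups of 3 libraries, of which MIA striatum LPS replicate 3 is titled as excluded and was set aside, leaving 23. The labels name no strain, no agent used for the maternal immune activation and no litter, so an effect of MIA and an effect of litter cannot be told apart. They do not say that replicates came from separate mice, and p-values then measure only the spread between these libraries.

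Library totals ran from 19453295 to 29480499 counts. All 9 microglial markers were at 83.9 CPM (counts scaled to a common library total) or more in every library. Their summed level in control cortex was between 52899 and 58138 CPM after saline and between 28579 and 39743 after LPS. There 6 of the 9 were called lower, against 7.25% of all genes tested. The 8 neutrophil markers summed to between 60.3 and 289 CPM in control cortex after saline and to between 468 and 709 after LPS, with Ly6g at 0 in 6 libraries. The 6 monocyte markers averaged 32.5 CPM in sum after saline and 215 after LPS in control cortex, and 17.3 and 148 in control striatum. In each control region 4 of them were called higher, against 10.9% of all genes in cortex and 12.7% in striatum. In control striatum the mean sums after saline and LPS were 3655 and 793 CPM for oligodendrocyte markers and 2198 and 1038 for endothelial markers. Mural markers there summed to between 655 and 1080 CPM after saline and between 263 and 513 after LPS. Called lower were 2 of 7, 6 of 10 and 5 of 9 of these markers in that order, against 8.15% of all genes. In control striatum the neutrophil sum went from between 38.1 and 64.4 to between 222 and 493. The part of any of these cells in the results below was not tested. The MIA cortex group held 2 libraries that stood apart: saline replicate 1, with a neutrophil sum of 756, and LPS replicate 3, with a neuronal sum of 344 against 25.8 to 145 in the other libraries. Control striatum saline libraries also differed among themselves, with oligodendrocyte sums of 5510, 4149 and 1307 CPM in replicates 1, 2 and 3.

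Nuclear subunit transcripts were higher after LPS in control mice, while no mitochondrially encoded gene was called with all libraries in the fit. That count of 0 became 3 lower in control striatum without LPS replicate 2. In control cortex the 82 nuclear genes together made up 6104, 5986 and 5592 CPM after saline and 8400, 8631 and 7242 CPM after LPS. The groups did not overlap. The 13 mitochondrial genes summed to 22453 ± 4690 CPM (SD, n = 3) after saline and 22589 ± 3196 CPM (SD, n = 3) after LPS. The ratio of the mitochondrial to the nuclear sum was 3.79 ± 0.642 (SD, n = 3) after saline and 2.79 ± 0.197 (SD, n = 3) after LPS. In control striatum it was 4.71 ± 0.797 (SD, n = 3) and 2.79 ± 1.08 (SD, n = 3), and there the ranges overlapped, at 3.79 to 5.2 and 2.03 to 4.03. The 4.03 was LPS replicate 2, and the other LPS libraries read 2.32 and 2.03. In whole-sample RNA of this kind, fewer cells of a type and less RNA per cell cannot be told apart.

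**Figure D1:**
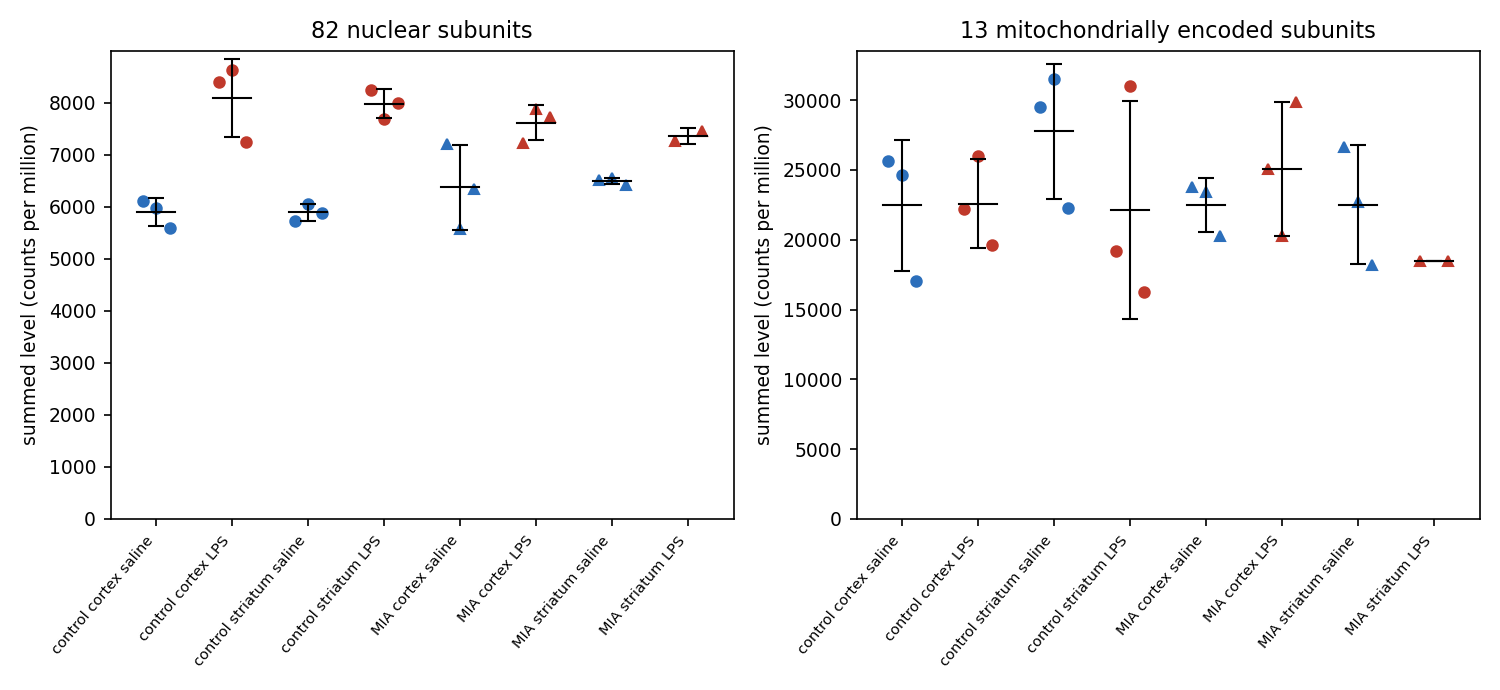
Summed level in CPM of the 82 nuclear (left) and 13 mitochondrially encoded (right) subunits in each of the 23 libraries, by group; blue is saline, red is LPS, circles are control and triangles MIA offspring, and the lines give the mean and SD. In both control regions the LPS libraries lie above the saline libraries for the nuclear sum, while the mitochondrial sums of saline and LPS libraries overlap in each region of control and MIA offspring.

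Within the chain, transcript levels per kilobase of exon spanned a wide range in control cortex after saline. The highest levels were of mitochondrial messages, mt-Atp6 (a proton-channel subunit of complex V) at 4966 CPM per kilobase, mt-Cytb (cytochrome b of complex III) at 3929 and mt-Co1 at 3842. Among mitochondrial genes mt-Nd3 stood at 94.5 CPM per kilobase and mt-Nd6, read from the opposite strand to the others, at 177. The highest nuclear members by this measure were Cox7a2l at 198, Cox4i1 at 188 and Cox8a at 152 CPM per kilobase. The lowest nuclear members were Cox6b2, a form known from testis, at 0.431 and Cox6a2 at 1.10 CPM per kilobase. This order depends on the lengths, which join all annotated exons and overstate the transcript in use for some genes. Before division by length, Atp5b at 546 CPM and Atp5a1 at 414 CPM were the highest nuclear members.

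In control cortex, 53 of the 95 subunit genes were higher after LPS at an adjusted p under 0.05 by edgeR's quasi-likelihood test, against 10.9% of all 17139 genes tested. The only gene called lower was Cox7a2l, where 7.25% of all genes were called lower. The median log2 difference was 0.63 over nuclear members, 0.05 over mitochondrial members and 0.04 over all genes. The LPS and saline libraries did not overlap for 68 members in the higher direction, against 18.0% of all genes, and for 1 in the lower direction, against 15.5%.

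In control striatum, 54 members were higher, against 12.7% of all genes, and again only Cox7a2l was lower, against 8.15%. The 55 calls became 33 without control striatum saline replicate 1 and 26 with only the groups compared in the fit. Shares of all genes called in those fits are not given here. The median was 0.56 over nuclear members, -0.26 over mitochondrial members and -0.02 over all genes. The libraries did not overlap for 62 members in the higher direction and 3 in the lower, against 17.6% and 17.4% of all genes. In all, 45 members were called higher in both control regions and 62 in at least 1 of them. Genes called in 1 region only, such as Sdhb in striatum and Cox8a in cortex, are not shown to differ between regions. In the test of the difference between the LPS effects in the 2 control regions, edgeR and DESeq2 both called 0 of 95. There edgeR called 0% of all genes. It gave 1 member an unadjusted p under 0.05, Cox4i2, where 5.52% of all genes passed. The same test in MIA mice also called 0 members with both tools, where edgeR called 0% of all genes. At an unadjusted p under 0.05, 2 members passed, both lower in striatum, against 2.79% of all genes.

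**Figure D2:**
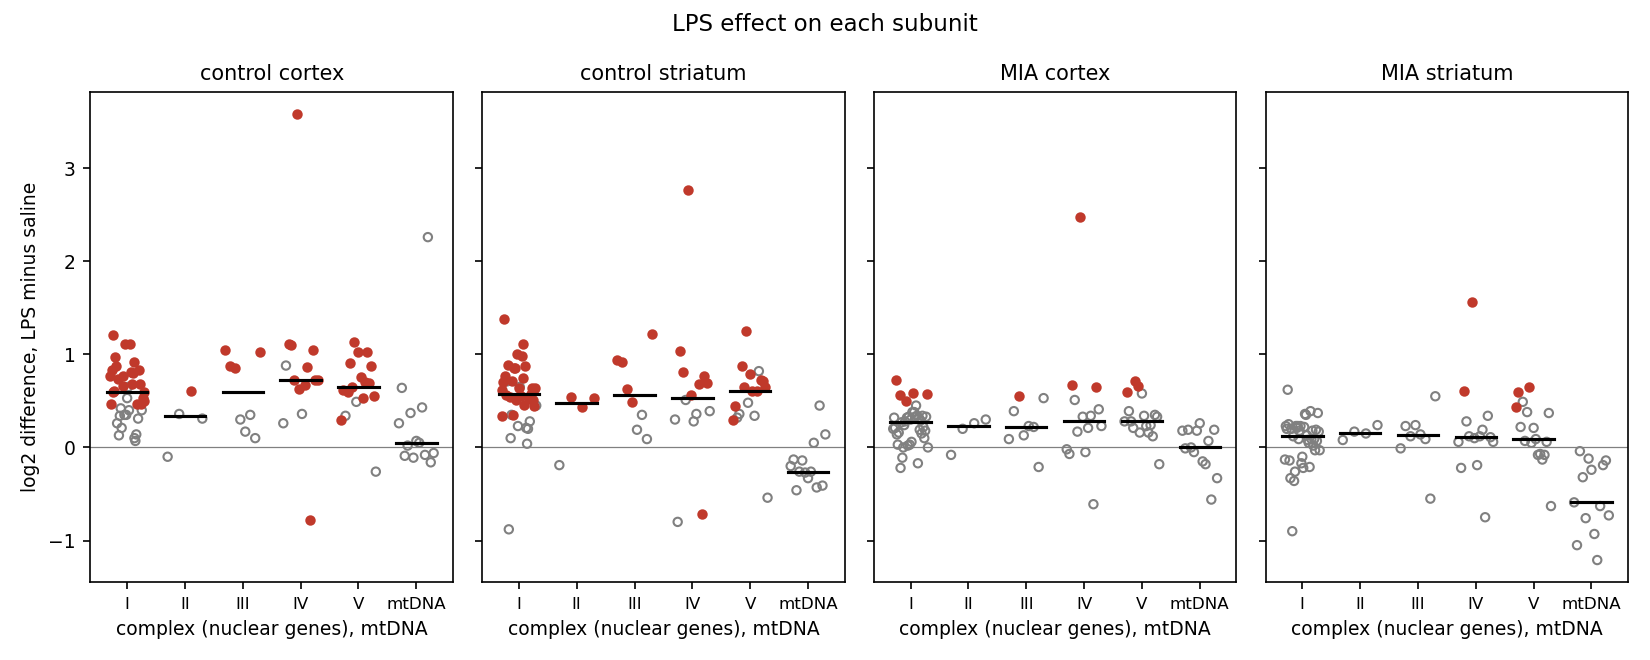
Log2 difference between LPS and saline (vertical axis) for each subunit gene, by complex for nuclear genes and together for the mitochondrial genome (mtDNA), in the 4 LPS comparisons; filled red points passed an adjusted p of 0.05 and black lines are medians. Nuclear medians in control cortex lie between 0.34 (complex II) and 0.73 (complex IV), and no mitochondrial gene is filled in any panel.

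Complex I oxidises NADH. Of the 39 nuclear genes with its names, 24 were higher in control cortex (median log2 difference 0.60) and 28 in control striatum (0.57). The striatum count was 16 without control striatum saline replicate 1. The set goes by name and so holds Ndufa4, now placed in complex IV, and its relative Ndufa4l2. Ndufa12, an accessory subunit of the arm that reaches into the matrix, had the largest called rise of complex I in both. Its level was 24, 18.8 and 18.6 CPM after saline and 49.4, 51.3 and 41.1 CPM after LPS in control cortex. In control striatum it was 19.6, 20 and 26.6 CPM after saline and 76.3, 42.4 and 53.8 CPM after LPS. No LPS library of either region reached down to a saline library. The log2 differences were 1.21 (SE 0.21, adjusted p = 0.0003, edgeR) and 1.38 (SE 0.21, adjusted p = 6.8e-05, edgeR).

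The 7 nuclear core subunits, which carry the flavin and the iron-sulfur clusters or lie next to them, had smaller medians than the other 32 genes, counted as accessory by name: 0.47 against 0.65 in control cortex and 0.51 against 0.63 in control striatum, a difference that was not tested. Ndufv2, an iron-sulfur subunit that works beside the flavin subunit Ndufv1, rose by 0.60 in control cortex (SE 0.12, adjusted p = 0.0011, edgeR). It stood at 62.4, 56.2 and 60.6 CPM after saline and at 95.8, 91.3 and 84.7 CPM after LPS. Ndufv1, which binds NADH, rose by 0.53 (SE 0.12, adjusted p = 0.0042, edgeR), and Ndufs3, and Ndufs7, which holds an iron-sulfur cluster, by 0.47 each (adjusted p = 0.018 and 0.042, edgeR). The Ndufs3 call was lost without control cortex LPS replicate 1 or saline replicate 3, and the Ndufs7 call without any of 5 of the 6 control cortex libraries, all but LPS replicate 3. Ndufs8 had a difference of 0.40 that did not pass in cortex (adjusted p = 0.055, edgeR) and rose by 0.61 in striatum (adjusted p = 0.004, edgeR). The largest core subunit, Ndufs1, had differences of 0.07 and 0.04, neither of which passed.

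Complex II, the succinate dehydrogenase shared with the citric acid cycle, had 1 of 4 genes called higher in control cortex and 3 of 4 in control striatum. The test of the LPS effect between control regions called none of the 4. Sdha, the flavin subunit that oxidises succinate, read 302, 308 and 366 CPM after saline and 322, 237 and 350 CPM after LPS in control cortex. The groups overlapped, and the log2 differences were -0.10 in cortex and -0.19 in striatum, neither called. Sdhc, a membrane anchor, went from 65.5, 66.5 and 60.6 CPM to 98.4, 107 and 88.7 CPM in control cortex (log2 0.61, SE 0.14, adjusted p = 0.0043, edgeR). Sdhb, the iron-sulfur subunit, rose by 0.54 in control striatum (SE 0.14, adjusted p = 0.0087, edgeR), where the libraries read 109, 118 and 120 CPM after saline and 219, 136 and 151 CPM after LPS. That call was lost without LPS replicate 1. Sdhd, the other anchor, rose by 0.53 there (SE 0.13, adjusted p = 0.007, edgeR).

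Complex III moves electrons from ubiquinol to cytochrome c. Of its 8 nuclear members, 4 were higher in control cortex and 5 in control striatum, the latter count being 2 without control striatum saline replicate 1. The largest rises were of the small subunits Uqcr10 and Uqcrq. Uqcr10 read 19.3, 15.3 and 16.8 CPM after saline and 35.2, 41.2 and 29.7 CPM after LPS in control cortex (log2 1.05, SE 0.26, adjusted p = 0.0065, edgeR). Uqcrq, which lies beside the ubiquinone-binding cytochrome b, rose by 1.22 in control striatum (SE 0.20, adjusted p = 0.00016, edgeR), from 28.6, 35.1 and 32.9 CPM to 92.2, 65.9 and 67.4 CPM. The core protein Uqcrc2 and the hinge protein Uqcrh were called in no comparison.

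Complex IV, cytochrome c oxidase, had the highest nuclear median in control cortex, 0.73, with 10 of 14 genes called higher and Cox7a2l lower. In control striatum 7 were higher and Cox7a2l lower, and these 8 calls became 5 without control striatum saline replicate 1. Cox5a (ENSMUSG00000000088.7), a subunit of the matrix side, was among 4 genes called higher in all 4 LPS comparisons, the others being Cox6a2, Atp5b and Atp5g1. Its level in control cortex was 41.4, 38.8 and 35.7 CPM after saline and 86.9, 96.7 and 66.8 CPM after LPS. In control striatum it was 37.7, 44 and 41 CPM and then 86.2, 82.9 and 84.2 CPM. The LPS libraries lay above all saline libraries of their region, with log2 differences of 1.11 (SE 0.15, adjusted p = 2.1e-05, edgeR) and 1.04 (SE 0.15, adjusted p = 3.7e-05, edgeR).

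Several subunits of complex IV exist as tissue isoforms, and Cox6a2 is the form known from heart and skeletal muscle, while Cox6a1 is made in most tissues. Cox6a2 (ENSMUSG00000030785.8) stood at 0.92, 0.862 and 0.468 CPM in control cortex after saline and at 8.72, 11.5 and 6.87 CPM after LPS. In control striatum it went from 1.69, 1.62 and 2.55 CPM to 15.6, 12.6 and 12 CPM. These were the largest rises of any member, with log2 differences of 3.58 (SE 0.40, adjusted p = 2.3e-06, edgeR) and 2.77 (SE 0.37, adjusted p = 1.9e-05, edgeR). Per kilobase of exon, Cox6a2 made up 0.85% ± 0.27 (SD, n = 3) of the 2 Cox6a levels in control cortex after saline and 5.8% ± 0.706 (SD, n = 3) after LPS. Cox6a1 was thus the main form in both conditions. It rose by 0.73 in control cortex (SE 0.20, adjusted p = 0.014, edgeR), a call lost without control cortex LPS replicate 2.

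Cox7a2l (ENSMUSG00000024248.14), also called SCAF1, is a relative of the complex IV subunit Cox7a2 and is known for joining complexes III and IV into a supercomplex. It stood at 317, 322 and 240 CPM in control cortex after saline and at 171, 201 and 141 CPM after LPS, with no overlap. In control striatum it read 336, 281 and 215 CPM after saline and 149, 224 and 132 CPM after LPS, where the highest LPS library exceeded the lowest saline library. The log2 differences were -0.78 (SE 0.23, adjusted p = 0.021, edgeR) and -0.72 (SE 0.23, adjusted p = 0.029, edgeR). Replicate 3 was the lowest library in all 7 groups that held one. In each region the call was lost without LPS replicate 1 or 3 or saline replicate 1 or 2, with adjusted p up to 0.084 in cortex and 0.14 in striatum (edgeR). Cox7a2 itself rose by 0.86 in control cortex (SE 0.19, adjusted p = 0.0027, edgeR) and by 0.68 in striatum (SE 0.19, adjusted p = 0.013, edgeR), the latter call lost without control striatum saline replicate 1.

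**Figure D3:**
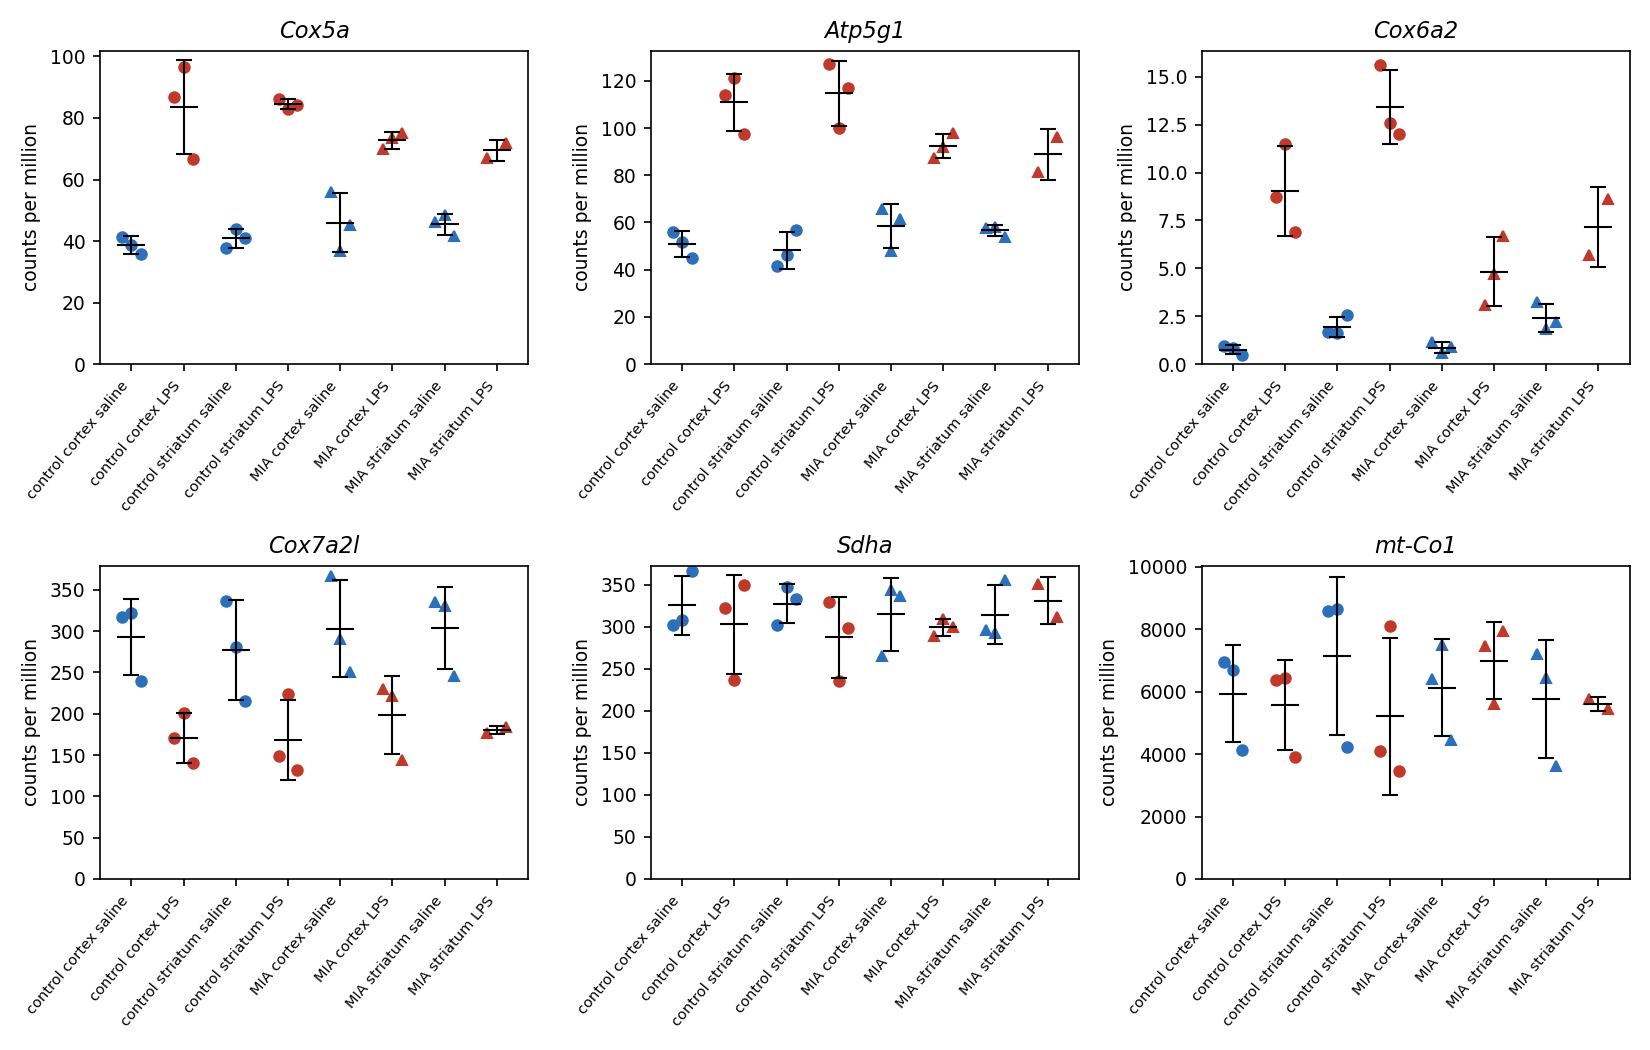
Level in CPM of 6 subunit genes in each of the 23 libraries by group, with colours, shapes and lines as in the plot of summed levels. Cox5a, Atp5g1 and Cox6a2 are higher in the LPS groups, Cox7a2l is lower, and Sdha and mt-Co1 overlap between saline and LPS.

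Complex V, the ATP synthase, had 14 of 17 nuclear genes higher in control cortex and 11 in control striatum. The cortex count was 8 without control cortex saline replicate 3. Atp5g1, Atp5g2 and Atp5g3 encode the same mature subunit c of the rotor ring with different import sequences. Atp5g1 read 55.8, 51.7 and 45 CPM after saline and 114, 121 and 97.5 CPM after LPS in control cortex, a log2 difference of 1.13 (SE 0.15, adjusted p = 1.9e-05, edgeR). In control striatum the difference was 1.25 (SE 0.15, adjusted p = 5e-06, edgeR). Atp5g3 rose by 1.03 and 0.79 in the same regions, the latter not called without control striatum LPS replicate 2, and Atp5g2 had differences of 0.49 and 0.48 that did not pass (adjusted p = 0.13 and 0.12, edgeR). Atp5b, the catalytic beta subunit, rose by 0.62 in control cortex (SE 0.13, adjusted p = 0.0014, edgeR), from 552, 549 and 537 CPM to 927, 846 and 747 CPM. The coupling factor gene Atp5s differed by -0.26 and -0.54 and was not called.

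The windows before the transcription starts of Cox5a, called higher in every LPS comparison, and of Cox7a2l, the only gene called lower, are shown with those of Ndufa11 and Ndufb6. The latter were the genes with the largest control cortex rise among those called higher in both control regions that hold, before the start, an NRF1 or an ETS motif; both factors are known regulators of respiratory chain genes. Sequences are from RefSeq, build GRCm38.p6, 250 bases up to the start, 5′ to 3′ on the gene's strand, with motif matches in capitals.
Cox5a (chr9:57520982-57521231, plus strand): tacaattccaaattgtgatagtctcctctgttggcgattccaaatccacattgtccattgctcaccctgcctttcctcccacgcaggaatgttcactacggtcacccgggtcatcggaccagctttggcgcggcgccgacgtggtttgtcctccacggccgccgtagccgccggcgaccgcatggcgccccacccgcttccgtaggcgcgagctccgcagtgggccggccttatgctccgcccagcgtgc
Cox7a2l (chr17:83514334-83514583, minus strand): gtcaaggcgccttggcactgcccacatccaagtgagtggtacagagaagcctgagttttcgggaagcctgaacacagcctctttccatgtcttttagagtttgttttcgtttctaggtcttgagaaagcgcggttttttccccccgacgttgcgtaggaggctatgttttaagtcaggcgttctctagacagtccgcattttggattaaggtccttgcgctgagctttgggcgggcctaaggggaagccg
Ndufa11 (chr17:56717512-56717761, plus strand): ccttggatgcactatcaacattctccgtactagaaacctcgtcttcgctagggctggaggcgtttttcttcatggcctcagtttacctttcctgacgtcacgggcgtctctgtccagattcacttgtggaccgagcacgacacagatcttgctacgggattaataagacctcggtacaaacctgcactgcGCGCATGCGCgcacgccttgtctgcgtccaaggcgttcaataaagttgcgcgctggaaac
Ndufb6 (chr4:40279422-40279671, minus strand): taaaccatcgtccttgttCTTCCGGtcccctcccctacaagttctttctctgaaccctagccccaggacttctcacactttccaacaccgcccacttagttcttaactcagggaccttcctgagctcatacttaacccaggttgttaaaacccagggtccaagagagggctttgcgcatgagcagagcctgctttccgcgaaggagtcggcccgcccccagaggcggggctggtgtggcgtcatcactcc

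The motifs searched on both strands of the whole 300-base window, from 250 bases before to 50 after the start, were the palindromic GC-rich consensus of NRF1, CCGGAAG for ETS factors such as GABPA, and AANATGGCG for YY1. A window was found for 66 of the 82 nuclear members. The NRF1 consensus was in 25.8% of them, against 10.2% of the 12008 tested genes with a window. ETS letters were in 24.2% against 18.0%, and YY1 letters in 15.2% against 5.15%. Longer spellings were also tried: CCGGAAGT was in 7.58% of members against 8.04% of tested genes, and AAGATGGCG in 10.6% against 3.07%. Any of the 3 main motifs was in 18 of the 37 members with a window that were called higher in both control regions (48.6%). It was in 19 of the other 29 (65.5%), a larger share, and in 29.2% of the tested genes with a window. A match is a stretch of letters and not a shown binding site.

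No mitochondrially encoded gene was called in any of 14 comparisons by edgeR with all 23 libraries. Without control striatum LPS replicate 2, 3 complex I genes were called lower in control striatum: mt-Nd1 (-0.60, adjusted p = 0.024), mt-Nd4 (-0.90, adjusted p = 0.012) and mt-Nd5 (-0.94, adjusted p = 0.011), all by edgeR. With that library their log2 differences were -0.33, -0.43 and -0.41. With only the groups compared in the fit, 3 genes were called in MIA striatum. Among the 4 LPS comparisons the unadjusted p was under 0.05 for 2 genes, both lower in MIA striatum where 21.4% of all genes passed, and DESeq2 called 1 gene, in MIA striatum. mt-Co1, the catalytic subunit of complex IV, read 6958, 6705 and 4144 CPM in control cortex after saline and 6379, 6443 and 3906 CPM after LPS. In control striatum it read 8580, 8655 and 4218 CPM and then 4089, 8101 and 3449 CPM. Replicate 3 was the lowest library of each of these 4 groups, and saline and LPS libraries overlapped.

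The spread between libraries was wide for this genome. mt-Nd3 ranged from 8.23 to 68.7 CPM within control striatum LPS alone. Leaving out mt-Nd4l, the standard error of the log2 LPS difference in control cortex ran from 0.19 for mt-Nd1 to 0.50 for mt-Nd3, against 0.15 for Cox5a. The log2 differences of the complex I genes in control cortex were -0.16 for mt-Nd5, -0.08 for mt-Nd4, -0.06 for mt-Nd6, 0.05 for mt-Nd2, 0.07 for mt-Nd1 and 0.43 for mt-Nd3. They were -0.11 for the complex III gene mt-Cytb, -0.09 for mt-Co1, 0.02 for mt-Co2, 0.37 for mt-Co3, 0.26 for mt-Atp6 and 0.64 for mt-Atp8. mt-Nd4l, at 0 to 5.46 CPM and overlapping mt-Nd4 on the genome, was at 0 in 3 libraries and is given no fold. How reads were shared between overlapping genes, including mt-Atp8 and mt-Atp6, is uncertain.

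In MIA offspring fewer subunits passed the test after LPS. In MIA cortex 12 were higher, against 7.05% of all genes, and none was lower, against 4.85%. This fit held no term for the replicate number, and with that number as a block Cox7a2l was called lower. All 12 were also called higher in control cortex: Atp5b, Atp5f1, Atp5g1, Cox5a, Cox6a2, Cox7b, Ndufa12, Ndufa4, Ndufab1, Ndufb6, Ndufv2 and Uqcrb. Saline and LPS libraries were fully apart for 22 members in the higher direction, against 14.2% of all genes, and for 1 in the lower, against 12.6%. The median log2 difference was 0.27 over nuclear members and 0.00 over mitochondrial members, where all genes had 0.01. The count was 7 without MIA cortex saline replicate 2, 3 with only the groups compared in the fit, 6 with the excluded library added back, and 21 with DESeq2. The shares of all genes called in those fits are not given here.

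In MIA striatum, with 2 LPS libraries, 5 of the 95 members were higher, a share below the 6.93% of all genes. None was lower, against 3.31%. The 5 were Atp5a1, Atp5b, Atp5g1, Cox5a and Cox6a2. Saline and LPS libraries did not overlap for 41 higher and 16 lower members, against 24.3% and 20.1% of all genes. The medians were 0.12 over nuclear and -0.59 over mitochondrial members, with -0.06 over all genes. Leaving out LPS replicate 1 gave 2 calls and leaving out LPS replicate 2 gave 0. Each of saline replicates 2 and 3, when dropped, left 3 calls, and adding back the excluded library gave 13. Cox5a read 46.2, 48.4 and 41.7 CPM after saline and 67.1 and 71.9 CPM after LPS (log2 0.61, SE 0.16, adjusted p = 0.018, edgeR). Cox6a2 read 3.23, 1.81 and 2.2 CPM and then 5.67 and 8.61 CPM (log2 1.56, SE 0.39, adjusted p = 0.011, edgeR). Cox7a2l differed by -0.61 in MIA cortex (adjusted p = 0.094, edgeR) and by -0.75 in MIA striatum (adjusted p = 0.074, edgeR). With the replicate number as a block, the MIA cortex value was -0.63 and passed (adjusted p = 0.0042, edgeR; range over all alternatives 0.0042 to 0.52).

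**Figure D4:**
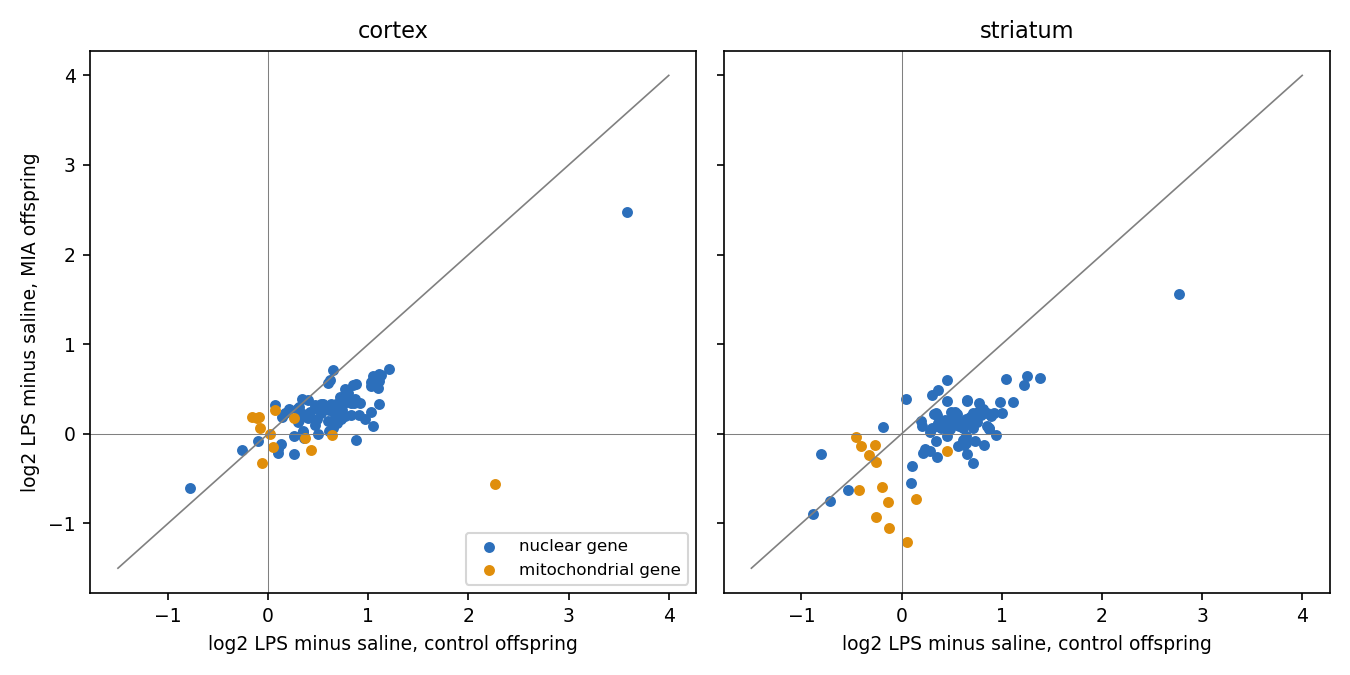
Log2 difference between LPS and saline in MIA offspring (vertical) against that in control offspring (horizontal) for each subunit gene in cortex and striatum, with the line of equal values; blue points are nuclear and orange points mitochondrial genes. In cortex 73 of the 82 nuclear genes lie below the line, with medians of 0.63 and 0.27 in control and MIA cortex and 0.56 and 0.12 in striatum.

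The difference between the LPS effects of MIA and control mice was tested itself, as an interaction. edgeR and DESeq2 called 0 of 95 members in cortex and 0 in striatum, where edgeR called 0% of all genes. At an unadjusted p under 0.05, 13 members passed in cortex and 28 in striatum, all towards a smaller LPS effect in MIA mice, against 4.34% and 7.72% of all genes. These counts moved widely with 1 library left out: in cortex from 2, without MIA cortex saline replicate 3, to 32, without MIA cortex saline replicate 2. In striatum the lowest was 6, without MIA striatum LPS replicate 1, and it was 12 without control striatum saline replicate 1. With a trend on exon length removed, the counts were 5 and 15. The medians over nuclear members were -0.35 in cortex and -0.47 in striatum, with -0.02 and -0.03 over all genes. The smallest adjusted p among members was 1.0 in cortex and 0.56 in striatum, for Atp5l, a membrane subunit of complex V. Cox6a2 had interaction values of -1.10 (SE 0.52) and -1.21 (SE 0.53). In striatum the median was -0.15 and 0 members passed unadjusted once the excluded library was added back.

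The interaction combined 2 differences of opposite sign. After saline, nuclear medians in MIA mice were above control by 0.25 in cortex and 0.23 in striatum, and after LPS they were below control, at -0.11 and -0.22. Neither tool called any member in these 4 comparisons, and edgeR called 0% of all genes in all but striatum after LPS, where it called 0.146%. Unadjusted, 17 members passed in cortex after saline, all higher in MIA, against 5.37% of all genes. In striatum after saline 13 were higher and mt-Cytb lower, against 4.91%. MIA and control libraries after saline did not overlap for 5 higher and 3 lower members in cortex, against 7.04% and 6.05% of all genes, and for 33 higher and 4 lower members in striatum, against 6.58% and 6.75%. The cortex counts lay below the shares of all genes. Only Cox6a2 passed in cortex after LPS, against 4.88%, and 17 members, all lower, in striatum after LPS, against 9.08%.

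Atp5e, a small subunit of the ATP synthase stalk, had the smallest unadjusted p in cortex after saline, at a log2 difference of 0.64 (SE 0.19, adjusted p = 0.91, edgeR). The cortex median after saline was 0.09, and 3 members passed unadjusted, once both MIA cortex libraries that stand apart were left out. Of these, LPS replicate 3 is not in this comparison. With 1 library left out, the median ran from 0.14, without MIA cortex saline replicate 1, to 0.39, without MIA cortex saline replicate 2. MIA cortex saline replicate 1, the library with the neutrophil sum of 756, had the highest mean log2 CPM of nuclear subunits among all saline libraries, 5.79, against 5.28 in the lowest library of its group. The part of neutrophils in that level was not tested. The striatum after LPS turned from -0.22 to 0.10 when the excluded library was added back.

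The medians moved with exon length in some comparisons and not in others. For LPS in MIA striatum, nuclear members had 0.07 under 1000 bases and 0.20 at 2000 bases and over. For MIA against control cortex after LPS the same bins had -0.13 and -0.12. Nuclear subunit genes are short, and in the comparison of MIA with control cortex after saline the 20 nuclear members under 1000 bases had a median of 0.34, while the 30 of 2000 bases and over had 0.05. Other genes moved the same way, at 0.21 for 836 genes under 1000 bases and -0.01 for 13957 genes of 2000 bases and over. For the interaction in striatum, members had -0.50 and other genes -0.48 under 1000 bases, -0.51 and -0.26 from 1000 to 2000 bases, and -0.31 and 0.03 at 2000 bases and over. For the LPS effect in control cortex the members stood above other genes at each length: 0.75 against 0.26 under 1000 bases, and 0.53 against 0.01 at 2000 bases and over. With a trend on exon length removed from each library, 44 members were called in control cortex and 41 in control striatum, the nuclear interaction medians were -0.20 and -0.28, and the MIA medians after saline were 0.13 and 0.12. Lengths are the union of all annotated exons (GENCODE vM21) and overstate the transcript in use for some genes.

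**Figure D5:**
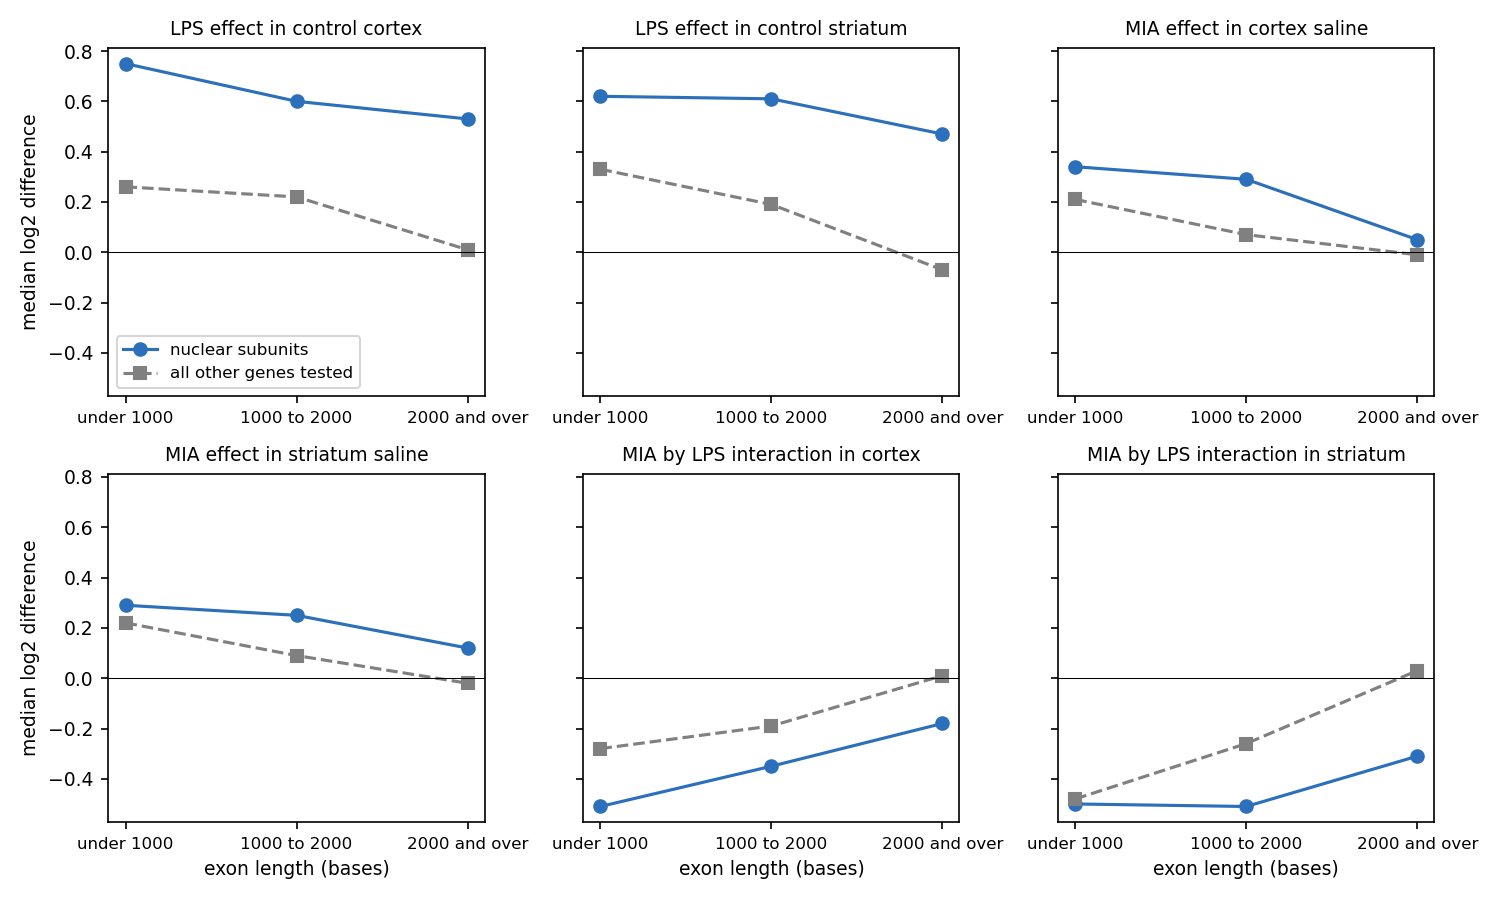
Median log2 difference (vertical) of nuclear subunit genes (blue, solid) and of all other genes tested (grey, dashed) in 3 bins of exon length (horizontal), for 6 comparisons. In the LPS comparisons of control mice the subunits lie above other genes in every bin, and in the interactions other genes are lowest in the shortest bin, as are the subunits in cortex, while in striatum the subunits have -0.50 and -0.51 in the 2 shorter bins.

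Between regions, edgeR called 0 of 95 members in control mice after saline, where it called 0.502% of all genes, and 0 in MIA mice, where it called 0.0817%. DESeq2 called 2 and 1. In MIA mice Cox6a2 alone passed unadjusted, against 4.57% of all genes. Unadjusted, 3 members passed in control mice, all higher in striatum: Cox4i2, Cox6a2 and Ndufa4l2, against 11.8% of all genes. Both unadjusted counts lay below the share of all genes. Cox4i2, the isoform of Cox4 known from lung and hypoxia, read 3.63, 3.53 and 2.45 CPM in control striatum and 1.34, 0.456 and 1.08 CPM in control cortex (log2 1.73, SE 0.48, adjusted p = 0.10, edgeR). The mural cell markers, 9 genes of pericytes and smooth muscle, summed to between 655 and 1080 CPM in those striatum libraries and to between 243 and 378 CPM in the cortex libraries. In the same comparison the mean sums of endothelial markers were 2198 CPM in striatum and 766 in cortex, and those of oligodendrocyte markers 3655 and 376. The part of these cells in the difference was not tested. The striatum minus cortex difference of Cox6a2 was 1.38 in control mice and 1.48 in MIA mice (adjusted p = 0.10 and 0.22, edgeR), with no overlap between the regions in either.

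Genes that serve the chain without carrying its names were read beside the members. Cycs, cytochrome c itself, and Cyc1, the cytochrome c1 of complex III, were called higher in all 4 LPS comparisons, by 1.15 and 0.80 in control cortex and by 0.59 and 0.52 in MIA striatum. In MIA striatum both calls were lost without LPS replicate 2, and that of Cyc1 also without LPS replicate 1 or saline replicate 2 or 3. Among 23 such carriers and subunits, 8 were higher and 2 lower in control cortex (10.9% and 7.25% of all genes) and 9 higher and 2 lower in control striatum (12.7% and 8.15%). In MIA cortex 5 were higher and 1 lower (7.05% and 4.85%), and in MIA striatum 4 higher and 1 lower (6.93% and 3.31%). AA467197, known also as NMES1 and related to Ndufa4, rose by 2.83 in control cortex (SE 0.60, adjusted p = 0.002, edgeR), from 0.167, 0.254 and 0.374 CPM to 1.6, 2.27 and 1.86 CPM. The saline levels of AA467197 rest on few reads. Ndufa4 itself rose by 0.88 there (SE 0.18, adjusted p = 0.0011, edgeR).

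The shares of all genes called higher in the 4 LPS comparisons, in the order control cortex, control striatum, MIA cortex and MIA striatum, were 10.9%, 12.7%, 7.05% and 6.93%, and the lists below are read beside them. Assembly factors, which build the complexes and are not part of them, had 10 of 46 higher in control cortex and 17 in control striatum. In MIA mice 3 were higher in cortex and 2 in striatum, and none was lower in any of these. The MIA counts lay below the share of all genes. Sco2, which delivers copper to complex IV, rose by 1.20 in control cortex and 1.63 in control striatum. Of 17 citric acid cycle genes, 3 were higher and 1 lower in control cortex, 3 higher in control striatum and 6 higher in each MIA region. Idh3a, a subunit of the NAD-dependent isocitrate dehydrogenase, rose in all 4, by 1.11, 0.93, 1.04 and 0.91. Of 20 genes for expression of mitochondrial DNA, 4, 6, 2 and 2 were higher in the same order, the MIA counts being near the share of all genes. Pnpt1, an RNA-degrading enzyme of mitochondria, rose by 1.15 in control cortex and 1.44 in MIA striatum. Of 9 regulators of mitochondrial genes, Gabpa and Gabpb1, the 2 parts of an ETS factor, fell by 0.49 and 0.78 in control cortex (adjusted p = 0.049 and 0.0049, edgeR). The Gabpa call was lost under most left-out libraries of control cortex (without LPS replicate 1 or 2, or saline replicate 1 or 3) and with the excluded library added back. The Gabpa difference was -0.06 in control striatum and -0.09 in MIA cortex, neither called. Gabpb1 fell by 0.74 in control striatum and by 0.86 in MIA striatum, the latter call lost without either LPS library. Pprc1, a coactivator related to Ppargc1a, rose by 0.67 in control striatum (adjusted p = 0.032, edgeR) and by 0.98 in MIA striatum (adjusted p = 0.01, edgeR). Those calls were lost with the excluded library added back, without either MIA striatum LPS library or saline replicate 2 in MIA striatum, and without LPS replicate 2 or 3 or saline replicate 2 or 3 in control striatum; that in control striatum was also lost without MIA striatum LPS replicate 2. Nrf1, Tfam, Esrra, Ppargc1a and Ppargc1b passed in none of the 4. Sod2, the mitochondrial superoxide dismutase, rose by 1.70 in control cortex (SE 0.16, adjusted p = 3.6e-07, edgeR) and by 1.05 in MIA striatum. It was 1 of 16 genes for other mitochondrial carriers and redox enzymes, of which 8, 9, 6 and 4 were higher in the 4 comparisons in the order above and none lower.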

How the data were processed

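RNA from CD11b-sorted microglia was sequenced in 24 libraries of 8 groups. The deposited table holds the authors' expected counts per gene, estimated with RSEM after alignment with STAR, and DESeq2 is also listed, per the submitters' processing notes. Tool versions and build are not given in the sources used here. Of the values, 6.92% were not whole, and all were rounded to whole numbers. Totals were 19453295 to 29480499 counts in the 23 libraries used, and 346 of 55487 identifiers had no symbol.

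Genes were kept by edgeR's filterByExpr (17139 genes). All groups were fitted together with edgeR's quasi-likelihood test (edgeR 4.0.16, limma 3.58.1, R 4.3.3; TMM scaling; 15 residual degrees of freedom), with Benjamini-Hochberg adjustment over all genes and a threshold of 0.05. The main fit was tested on simulated data, and the alternatives were not. Each simulated library was drawn independently, with a spread set by the mean level of the gene. The simulation held no pairing of libraries, no mixture of cells and no trend on length, so it does not test the fit against these. "Called" means past that threshold. CPM are edgeR's cpm values on TMM-scaled totals, and log2 differences are the fitted coefficients. The excluded library was left out. DESeq2 1.42.0, other scalings, no low-count filter, the excluded library added back, fits of only the groups compared, a replicate block and each library left out were alternatives. Leaving out both MIA cortex libraries that stand apart, and removing a trend on exon length (alone or with the block), were chosen after seeing the data. Figures used Python 3.11.15 and matplotlib 3.10.9.

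The members and lists were chosen with earlier results of these data known. Named genes were all mitochondrial members, the largest called rise and fall of each complex in each comparison with at least 10 CPM in the higher group, isoform pairs, complex I core and Sdh genes, and listed genes outside the prefixes. Ndufv2, Cox7a2, Uqcrc2, Uqcrh, Atp5e, Atp5l, Atp5s, Cox8a, Ndufa11 and those named as a count of 5 or fewer were included whether or not this rule gave them. Of 77 pairs of same-numbered libraries, 35 had correlated deviations above 0.1. For LPS against saline in MIA cortex all 3 pairs did (0.1434, 0.1237 and 0.3148), so numbers were taken to pair the libraries there, from the data and not from the labels. The main fit held no term for this pairing, so the MIA cortex calls from it leave the pairing out. Control cortex LPS and control striatum LPS libraries also paired (0.275, 0.2764 and 0.3141). They enter the test of the LPS effect between regions, which called 0 members with and without the block, and 0% of all genes without it. LPS effects set side by side for these regions are not from independent libraries in that sense.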

Additional observations from a re-analysis of the deposited data

Results flagged for a closer look

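The library titled as excluded, MIA striatum LPS replicate 3, entered no comparison of the report. Mitochondrially encoded genes took 6.16% of its counts, against 1.93% to 4.37% in the libraries used. Its nuclear subunits summed to 11362 CPM and its mitochondrial ones to 49564 CPM, with TMM scaling over all 24 libraries, against at most 8631 and 31516 CPM in the libraries used.

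Ndufb1-ps was set aside for its pseudogene name but had a mean count of 545 over the libraries used, far above the minimum of 10. It read 13, 12.7 and 13.7 CPM in control cortex after saline and 28.5, 43.4 and 26.0 CPM after LPS, a log2 difference of 1.31 (SE 0.26, adjusted p = 0.00094, edgeR). In control striatum the difference was 1.24 (SE 0.26, adjusted p = 0.0014, edgeR), and in MIA cortex and MIA striatum it was 0.44 and 0.08, neither called. How reads were shared with similar genes is uncertain.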

How the results depend on the processing

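No called result reversed. Adding back the excluded library turned 2 uncalled nuclear medians: MIA against control in striatum after LPS went from -0.22 to 0.10, and the difference between regions of the LPS effect in MIA mice from -0.15 to 0.14. Among single results under alternatives other than leaving out a library, 2653 kept their side of the threshold, 83 lost it and 52 gained it. The calls for LPS in control striatum became 26 with only the groups compared. Those in MIA cortex became 6 with the excluded library added back, 3 with only the groups compared, 19 with length and block together and 21 with DESeq2. Those in MIA striatum became 13, 12, 9 and 9 under the same alternatives. DESeq2 called 2 members between regions in control mice and 1 in MIA mice after saline. The cause of these shifts was not tested. Shares of all genes called under each alternative are not given here. A shift shared by all genes and one of the subunits therefore cannot be told apart from these counts. With 1 library left out, calls ranged from 40 to 59 (LPS in control cortex), 33 to 59 (control striatum), 7 to 15 (MIA cortex) and 0 to 7 (MIA striatum), and were 0 in all other comparisons; where 1 library of MIA striatum LPS was left, it was assumed to vary like the other groups. With the replicate number as a block, 59, 59, 15 and 7 members were called in these LPS comparisons and 0 elsewhere; 15 of 23 libraries were closest to their own number. Among named genes in MIA cortex the block changed the call of Cox7a2l and no other. With 3 libraries a group, small differences were not detectable, and mt-Nd4l, Cox4i2, Cox6a2 and AA467197 were among the genes with few reads.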
